A study of Mus musculus with 6 samples.

Results

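Regulators of G-protein signalling (RGS proteins) were examined in the caudal artery, the main artery of the tail, of mice with and without the receptor gene Notch3. The 10 genes taken were Rgs1, Rgs2, Rgs3, Rgs4, Rgs7, Rgs10, Rgs11, Rgs12, Rgs16 and Rgs17, of 18193 genes named on the chip. They were read by the 23 probe sets whose only gene symbol in the platform annotation was one of these names. The arrays held 3 pools of Notch3-/- arteries, each from 4 mice, and 3 pools of Notch3+/+ arteries, from 4, 3 and 3 mice in replicates 1 to 3, all taken at 4 weeks of age (P28). No other allele or treatment is named for either genotype, and the labels do not describe how Notch3 was disrupted. Whole vessels from several mice were pooled, so fewer cells of a type and less RNA per cell cannot be told apart, and differences between single mice cannot be seen.

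Hormones and transmitters that tighten or relax an artery act through receptors that load a G-protein alpha subunit with GTP. An RGS protein binds the loaded subunit and speeds the hydrolysis of its GTP, so that the signal ends sooner. In mice, loss of Rgs2 prolongs signals of constrictor receptors that use Gq in vascular smooth muscle and raises blood pressure. The family is divided by sequence into the R4 group of small proteins (Rgs1, Rgs2, Rgs3, Rgs4 and Rgs16 here), the R7 group that needs the G-protein subunit Gnb5 as partner (Rgs7 and Rgs11), the R12 group (Rgs10 and Rgs12) and the RZ group (Rgs17).

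Values are log2 expression after RMA, and a change is the Notch3-/- mean minus the Notch3+/+ mean on that scale. Each probe set binds its target with its own strength, so a difference in level between probe sets does not measure a difference between transcripts. The summed levels of marker lists given below mostly follow their brightest probe sets and do not measure cell number. Notch3 averaged 6.27 ± 0.35 in Notch3-/- pools and 9.99 ± 0.08 in Notch3+/+ pools on its brighter probe set (SD, n = 3 each; limma adjusted p = 0.000529). The smooth muscle marker Acta2 averaged 13.25 in Notch3-/- pools and 13.20 in Notch3+/+ pools, close to the top of the scale at 13.38. Notch3-/- replicate 2 was the array farthest from the rest on the first principal component (45.2% of the variance), with a score of 39.5 where the remaining arrays scored -17.1 to 5.85. For tested probe sets of RGS genes, the value without that pool is given where its omission ended a call, turned a sign or moved the value by over 1.5 times.

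No probe set of the 10 RGS genes passed the test over all probe sets. Of the 23, 17 from 8 genes had a mean level at or above the 40th percentile of the chip (3.825) and were tested, and 0 of 17 had a limma adjusted p under 0.05, beside 0.252% of all 27027 tested probe sets. At an unadjusted p under 0.05 there were 4 of 17, beside 11.4% of all tested probe sets. These 4 were the probe set of Rgs1 and the 3 of Rgs4, all lower in Notch3-/- arteries, where 4.85% of all tested probe sets lay. On 3 of 17 the genotypes had no overlap between pools, beside 16.2% of all tested probe sets. All 3 were lower in Notch3-/- pools, as were 7.75% of all tested probe sets. Leaving out Notch3-/- replicate 2 gave 7 of 17 with no overlap. Fewer pools separate more easily, and the share of all tested probe sets was not counted for that refit. The 17 changes ran from -0.45 to 0.19 with a median of -0.13, and 12 of them were below 0. Over all tested probe sets the median was -0.01 and 51.8% were below 0. Several probe sets read the same gene, so the 17 are not independent. By the brightest probe set of each of the 8 tested genes, the changes were evenly split. There 4 were below 0 and 4 above, with a median of -0.045, beside -0.0033 over all tested genes.

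**Figure D1:**
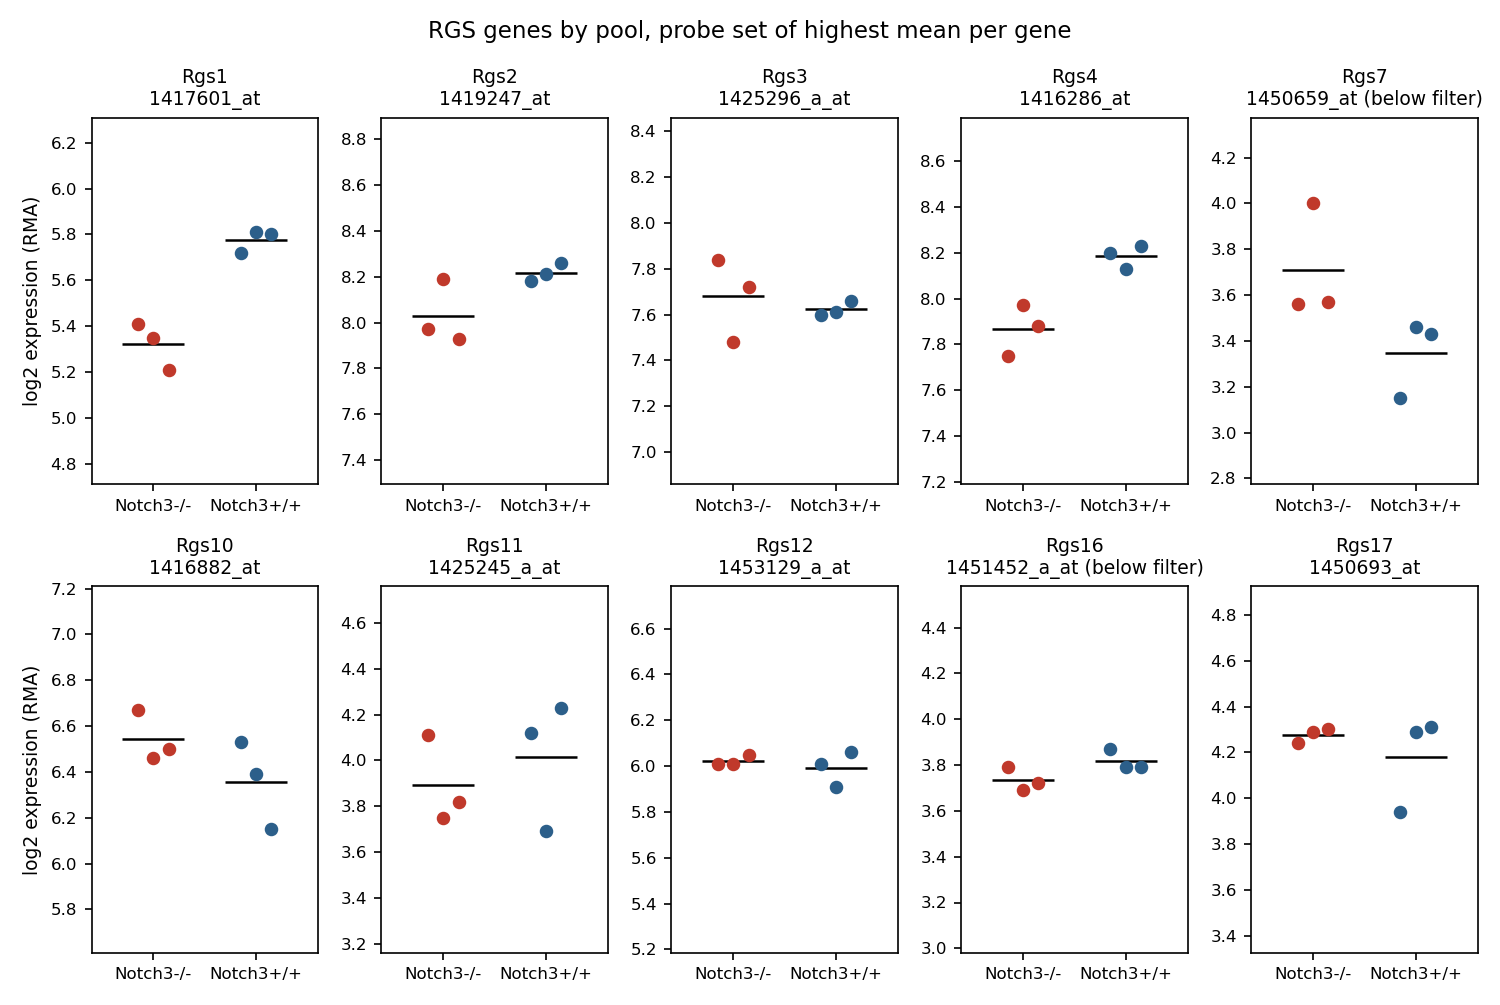
Log2 expression (vertical axis, RMA) of the 10 RGS genes in 3 Notch3-/- pools (red, left) and 3 Notch3+/+ pools (blue, right), for the probe set of highest mean of each gene. Points are pools, bars are means, and every panel spans the same number of log2 units. The pools separate for Rgs1, Rgs4 and Rgs7, and mix for the other 7 genes.

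The upstream sequences of Rgs4 and Rgs2 are shown first, because both genes act on Gq in vascular muscle and Rgs4 is one of the genes whose pools did not overlap. RefSeq starts were matched for 8 of the 10 genes in mouse assembly GRCm38.p6, with 10 windows among them. Rgs1, whose pools did not overlap either, and Rgs11 had no window, so no motif was counted for them. The 250 bases before the start are printed, 5′ to 3′ along the gene. The Rgs4 window is chr1:169747643-169747892 and the Rgs2 window chr1:144004150-144004399, both on the minus strand. Capitals mark the motifs found on either strand (GGGCGG appears as CCGCCC where it lies on the opposite strand), and the marked motifs in these windows do not overlap.
Rgs4: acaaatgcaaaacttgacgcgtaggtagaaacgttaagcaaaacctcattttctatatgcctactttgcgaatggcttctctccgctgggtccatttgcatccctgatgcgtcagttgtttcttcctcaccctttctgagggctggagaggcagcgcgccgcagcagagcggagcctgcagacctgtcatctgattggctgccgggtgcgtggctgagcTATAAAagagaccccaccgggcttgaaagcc
Rgs2: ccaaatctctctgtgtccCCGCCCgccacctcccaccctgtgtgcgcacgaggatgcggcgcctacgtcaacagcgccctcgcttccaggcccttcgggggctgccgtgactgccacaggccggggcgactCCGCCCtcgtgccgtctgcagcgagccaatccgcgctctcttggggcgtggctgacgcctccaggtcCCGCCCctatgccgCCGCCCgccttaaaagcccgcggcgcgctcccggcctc

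Rgs4 held 1 TATAAA, from base -31 to base -26 before its start, and no GGGCGG. In Rgs2 there were 4 GGGCGG and no TATAAA. As background, the letters GGGCGG form the GC box bound by Sp1-type factors, and those of TATAAA the core of the TATA box. TGGGAA, the core letters bound by Rbpj, the DNA-binding partner of Notch receptors, was in neither window and, of the 10 RGS windows, in 1 of Rgs3. The CArG box of serum response factor was in 0 of 10. Among all 32851 windows of the table, TATAAA was in 12.4%, GGGCGG in 32.7%, TGGGAA in 21.6% and the CArG box in 1.47%. These counts describe letters in one window and say nothing about binding.

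In the R4 group, Rgs4 read lower in Notch3-/- arteries on each of its 3 probe sets, without passing the test over all probe sets. Rgs4 shortens signals of Gi and Gq and is known from smooth muscle, heart and brain. On probe set 1416286_at it read 7.75, 7.97 and 7.88 in Notch3-/- pools, against 8.20, 8.13 and 8.23 in Notch3+/+ pools. On 1416287_at it read 6.97, 7.04 and 7.07 in Notch3-/- pools, against 7.36, 7.34 and 7.44 in Notch3+/+ pools. On both, every Notch3-/- pool lay below every Notch3+/+ pool. On 1448285_at it read 5.88, 5.86 and 6.13 in Notch3-/- pools, against 6.73, 6.40 and 6.08 in Notch3+/+ pools, where 1 Notch3+/+ pool fell among the Notch3-/- values.

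The 3 changes of Rgs4 were -0.32 (SE 0.09), -0.35 (SE 0.08) and -0.45 (SE 0.17), a level 1.25-, 1.28- and 1.36-fold lower in Notch3-/- arteries. Their unadjusted p were 0.00651, 0.00187 and 0.029, and their limma adjusted p 0.251, 0.173 and 0.387. The 95% intervals, which are not adjusted for the number of probe sets, ran from -0.52 to -0.12, from -0.53 to -0.18 and from -0.83 to -0.06. Without Notch3-/- replicate 2 the changes were -0.37, -0.36 and -0.40, with limma adjusted p of 0.251, 0.251 and 0.581. On 1448285_at the change was -0.28 without Notch3+/+ replicate 1 (unadjusted p = 0.0866, limma adjusted p = 0.514) and -0.61 without Notch3+/+ replicate 3 (limma adjusted p = 0.463). With arrays weighted by their estimated quality, the first 2 probe sets passed (limma adjusted p = 0.0493 and 0.0355), in a fit that called 978 probe sets in all.

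Markers of the cells that a whole artery holds were read beside Rgs4, and none of the markers in the first 4 lists given here passed the test in limma. Over all tested genes, 4.81% were lower and 7.1% higher at an unadjusted p under 0.05. Of 5 smooth muscle markers 3 were above 0 and 2 below, with Cnn1 at 0.51 and Smtn at -0.58. Their summed level (the sum of their antilogs) came to 24638 to 25003 in Notch3-/- pools and 22756 to 26102 in Notch3+/+ pools. The 6 pericyte markers were split, with 3 higher and 2 lower at an unadjusted p under 0.05: Pdgfrb (0.42) and Abcc9 (0.44) were above 0, and Cspg4 (-0.42) and Ndufa4l2 (-0.58), named after their values were seen, below. They summed to 2566 to 2795 in Notch3-/- pools and 2333 to 2375 in Notch3+/+ pools. Among endothelial markers, 6 of 8 were below 0 and 4 of these had an unadjusted p under 0.05, with sums of 3281 to 3737 in Notch3-/- pools and 3984 to 4325 in Notch3+/+ pools. All 7 skeletal muscle markers tested were below 0, 3 of them with an unadjusted p under 0.05, and they summed to 588 to 1218 in Notch3-/- pools and 919 to 1083 in Notch3+/+ pools. Of 8 fibroblast markers 7 were above 0 and 4 were higher at an unadjusted p under 0.05. Among them Dpt just passed (0.58, limma adjusted p = 0.0499). All 7 mast cell markers were above 0, 4 of them with an unadjusted p under 0.05, and 0 passed. Their sums overlapped, at 1456 to 2488 in Notch3-/- pools and 827 to 1794 in Notch3+/+ pools. On all 7 Notch3+/+ replicate 3 was the lowest pool or tied for it. The part of these cells in the Rgs4 values was not tested.

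Rgs1 had the smallest unadjusted p of the 8 tested genes and also missed the threshold. Rgs1 is known from lymphocytes and other leukocytes, where it dampens chemokine receptor signals. Its probe set read 5.41, 5.35 and 5.21 in Notch3-/- pools, against 5.72, 5.81 and 5.80 in Notch3+/+ pools, so the genotypes did not overlap. The change was -0.45 (SE 0.08), or 1.37-fold lower in Notch3-/- arteries, with a 95% interval from -0.65 to -0.26, an unadjusted p of 0.000794 and a limma adjusted p of 0.121. Without Notch3-/- replicate 2 it was -0.47 (limma adjusted p = 0.208). With array weights it was -0.54 and passed (limma adjusted p = 0.00867).

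The leukocyte markers lay on the other side of 0 from Rgs1. All 12 macrophage and leukocyte markers tested were above 0, by 0.14 to 0.66, none passed the test (0 of 12 in limma), and 7 had an unadjusted p under 0.05, beside 7.1% of all tested genes that were higher at that p. For 5 of the 12 every Notch3-/- pool lay above every Notch3+/+ pool, beside 9.46% of all tested genes. Their summed level was 2409 to 3072 in Notch3-/- pools and 1492 to 2405 in Notch3+/+ pools. On all 12 markers Notch3+/+ replicate 3 was the lowest pool, so part of each difference lies in that pool. Csf1r, for example, read 10.08, 9.83 and 9.95 in Notch3-/- pools, against 9.75, 9.72 and 9.19 in Notch3+/+ pools. Markers of the same cells can vary together, so the 12 are not independent. Of 6 B and T lymphocyte markers named on the chip, 5 were below the level filter, and the remaining one, Cd3e, changed by -0.19 (limma adjusted p = 0.62). The part of these cells in the Rgs1 value was not tested.

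**Figure D2:**
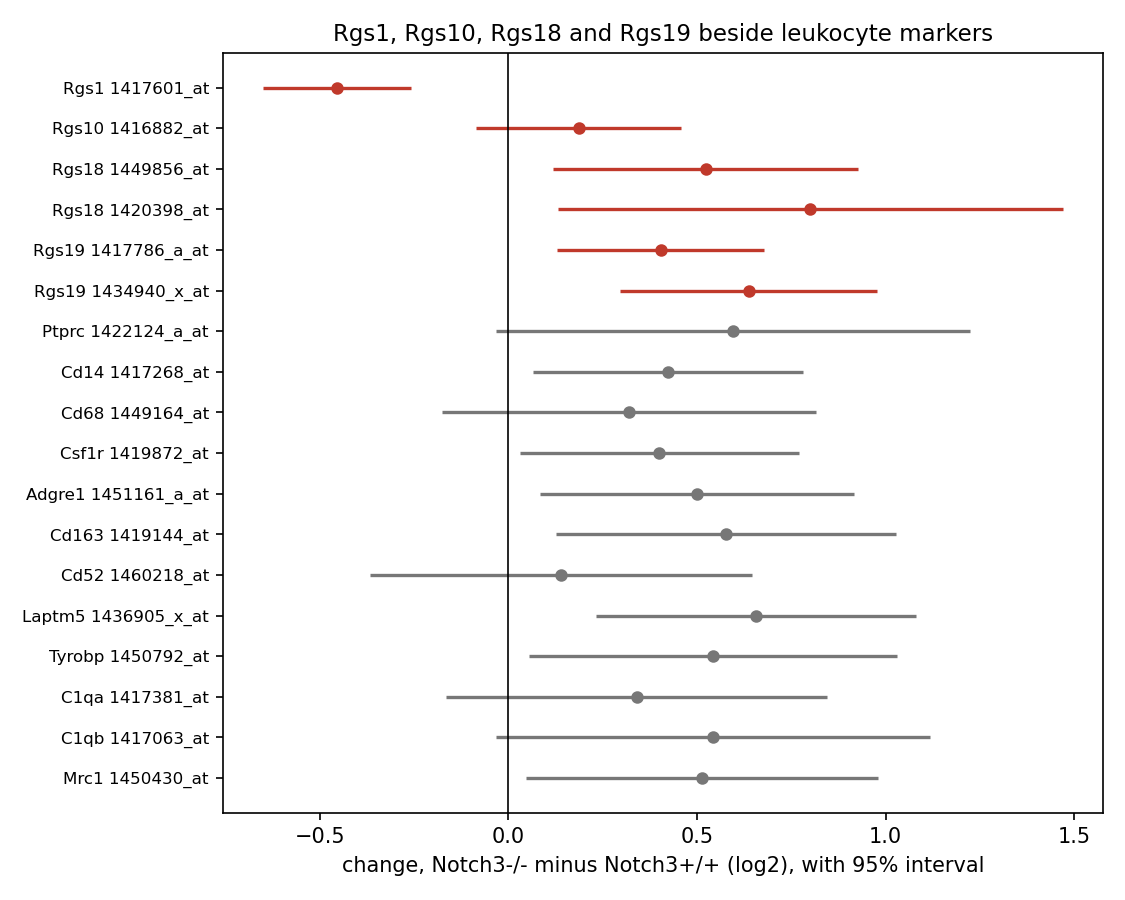
Change between genotypes (horizontal axis, Notch3-/- minus Notch3+/+, log2) with its unadjusted 95% interval for Rgs1, Rgs10, Rgs18 and Rgs19 (red) and 12 macrophage and leukocyte markers (grey). Rgs1 lies at -0.45, while the markers lie between 0.14 and 0.66.

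Rgs2, the regulator most selective for Gq and a substrate of the cyclic GMP-dependent kinase in vascular muscle, did not pass on any probe set. On probe set 1419247_at it read 7.97, 8.19 and 7.93 in Notch3-/- pools, against 8.18, 8.21 and 8.26 in Notch3+/+ pools. One Notch3-/- pool lay within the Notch3+/+ range and the remaining pools below it. The change was -0.19 (SE 0.09, 95% interval -0.40 to 0.03, limma adjusted p = 0.499). Without Notch3-/- replicate 2 the remaining Notch3-/- pools lay below every Notch3+/+ pool, and the change was -0.27 (unadjusted p = 0.00905, limma adjusted p = 0.343). The 2 further tested probe sets changed by -0.06 (95% interval -0.26 to 0.13) and 0.04 (95% interval -0.36 to 0.43). On the last of them, 1447830_s_at, the Notch3-/- pools spread widely, at 6.98, 7.14 and 6.45, against 6.75, 6.84 and 6.87 in Notch3+/+ pools. These 2 changes, without Notch3-/- replicate 2, were -0.11 and -0.10, so that the second turned its sign. The fourth, 1443250_at, averaged 3.54 ± 0.11 in Notch3-/- pools and 3.45 ± 0.05 in Notch3+/+ pools (SD, n = 3 each), below the level filter.

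Rgs3, whose longest forms carry a PDZ domain that binds ephrin-B ligands, was read by 4 tested probe sets that cover alternative transcripts. They changed by 0.06, -0.15, -0.0033 and -0.19, with limma adjusted p of 0.602 or more, and the pools overlapped on all 4. On the brightest, 1425296_a_at, Rgs3 read 7.84, 7.48 and 7.72 in Notch3-/- pools, against 7.60, 7.61 and 7.66 in Notch3+/+ pools. Here the Notch3-/- values lay on both sides of the narrow Notch3+/+ range, and the 95% interval of the change ran from -0.19 to 0.30. Without Notch3-/- replicate 2, the lowest of these values, the change was 0.16 (limma adjusted p = 0.585), and that of 1425701_a_at was 0.19 (limma adjusted p = 0.607), against -0.0033 with all pools. On 1449516_a_at the wider spread was in Notch3+/+ pools, at 6.88, 7.45 and 7.58, with Notch3-/- pools at 7.07, 7.23 and 7.15. Its change depended on single Notch3+/+ arrays. Without Notch3+/+ replicate 1 it was -0.365 (limma unadjusted p = 0.00862, adjusted p = 0.269), and without Notch3+/+ replicate 3 it was -0.015.

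Rgs16, which acts on Gi and Gq, was dim on all 3 probe sets and was not tested. Its values ran from 2.83 to 3.87 over the 6 pools, and its brightest probe set, with a mean of 3.78, lay just under the filter level. That probe set averaged 3.73 ± 0.05 in Notch3-/- pools and 3.82 ± 0.05 in Notch3+/+ pools (SD, n = 3 each). The files give no detection call for values this low.

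**Figure D3:**
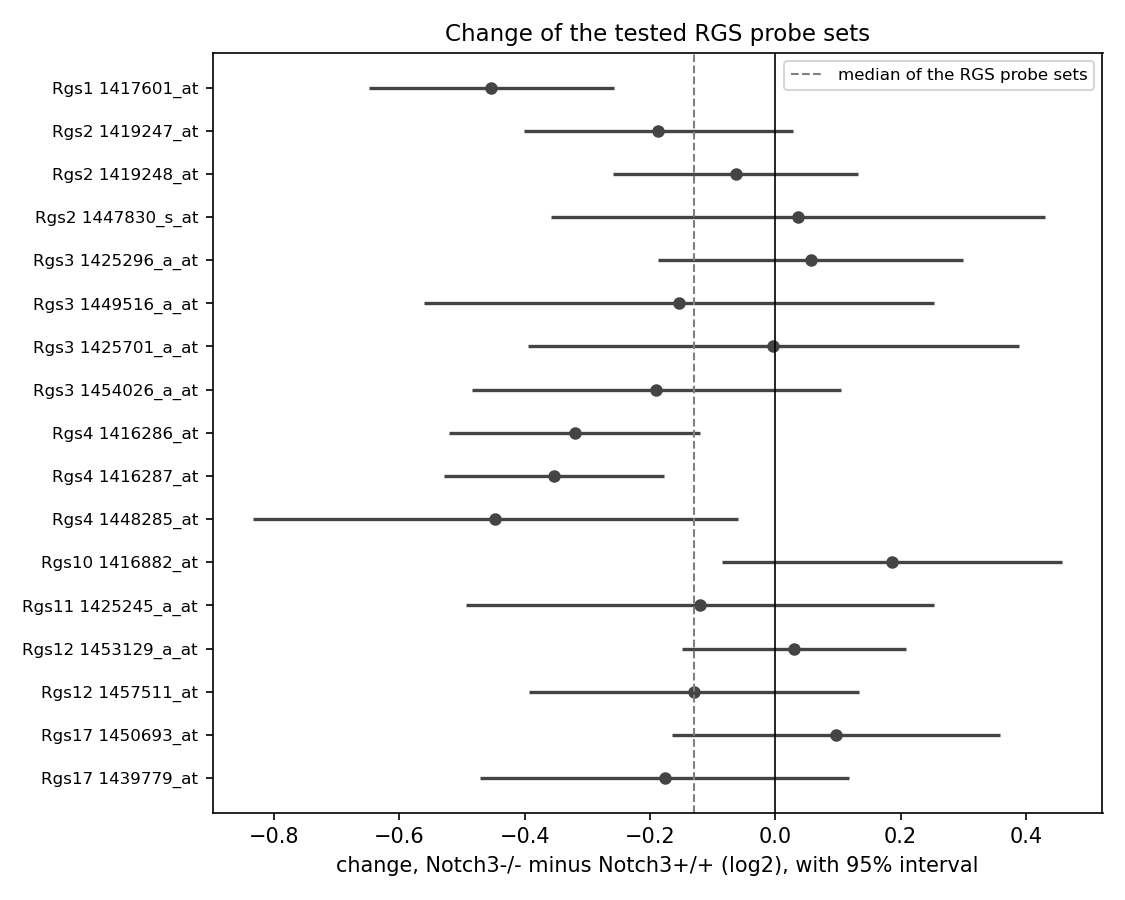
Change (horizontal axis, Notch3-/- minus Notch3+/+, log2) with unadjusted 95% interval for the 17 tested RGS probe sets, listed by gene. The intervals of Rgs1 and of the 3 Rgs4 probe sets lie below 0, those of the other 13 include 0, and the dashed line marks the median of the 17 at -0.13.

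In the R7 group, Rgs7 and Rgs11 were at the low end of the scale. Both are chiefly neuronal, and Rgs11 serves bipolar cells of the retina. Rgs7 read 3.56, 4.00 and 3.57 in Notch3-/- pools, against 3.15, 3.46 and 3.43 in Notch3+/+ pools, a change of 0.36 without overlap, but its mean of 3.53 kept it out of the test. Its highest value was that of Notch3-/- replicate 2. With no level filter its limma adjusted p was 0.468. Rgs11, which lies on chromosome 17 as Notch3 does, read 4.11, 3.75 and 3.82 in Notch3-/- pools, against 4.12, 3.69 and 4.23 in Notch3+/+ pools. These values mixed fully, and the change was -0.12 (95% interval -0.49 to 0.25, limma adjusted p = 0.792), or -0.048 without Notch3-/- replicate 2.

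In the R12 group, Rgs10, a small regulator of Gi known from macrophages and microglia, read 6.67, 6.46 and 6.50 in Notch3-/- pools, against 6.53, 6.39 and 6.15 in Notch3+/+ pools. Its change was 0.19 (SE 0.12, 95% interval -0.08 to 0.46, limma adjusted p = 0.578), with overlapping pools. The Rgs10 change was 0.083 without Notch3+/+ replicate 3 and 0.27 without Notch3+/+ replicate 1 (limma adjusted p = 0.868 and 0.451). Rgs12, a large scaffold with PDZ, Ras-binding and GoLoco domains, varied little on its brightest probe set, at 6.01, 6.01 and 6.05 in Notch3-/- pools and 6.01, 5.91 and 6.06 in Notch3+/+ pools. Its change of 0.03 had the 95% interval -0.15 to 0.21. The other tested Rgs12 probe set changed by -0.13 (95% interval -0.39 to 0.13), and the third lay below the filter with a change of -0.01.

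Rgs17, the RZ group member, which acts on Gi and Gz, was read by 2 probe sets that differed in sign. They changed by 0.10 (95% interval -0.17 to 0.36) and -0.18 (95% interval -0.47 to 0.12), with limma adjusted p of 0.758 and 0.627. The second was -0.10 without Notch3-/- replicate 2. On 1450693_at it read 4.24, 4.29 and 4.30 in Notch3-/- pools and 3.94, 4.29 and 4.31 in Notch3+/+ pools, and without the low Notch3+/+ replicate 1 the change was -0.023.

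**Figure D4:**
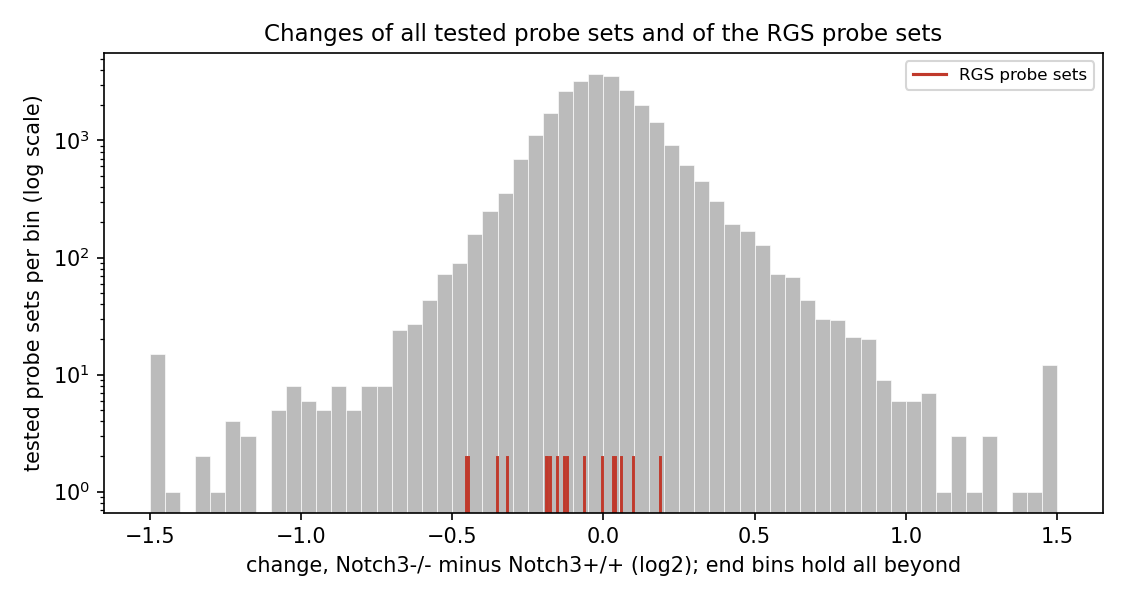
Number of tested probe sets (vertical axis, log scale) by change (horizontal axis, Notch3-/- minus Notch3+/+, log2, in bins) over all 27027 tested probe sets, with the 17 RGS probe sets as red ticks. The RGS probe sets lie between -0.45 and 0.19. The lowest pair, Rgs1 and 1448285_at of Rgs4, are in the lower tail, where 1.29% of all tested probe sets lie at or below the value of Rgs4.

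The other RGS genes of the family had changes of both signs and did not pass. Of 9 named on the chip, 5 were tested and 0 passed in limma by their brightest probe set, where 0.322% of all tested genes passed. At an unadjusted p under 0.05 on that probe set there were 2, both higher in Notch3-/- arteries, beside 7.1% of all tested genes. Rgs5, the RGS gene best known as a marker of pericytes and arterial smooth muscle, lies next to Rgs4 on chromosome 1. Its 4 probe sets changed by -0.07, -0.27, -0.26 and -0.47, and on all 4 every Notch3-/- pool lay below every Notch3+/+ pool, as on 7.75% of all tested probe sets. They were, without Notch3-/- replicate 2, -0.042, -0.23, -0.12 and -0.27. On 1420941_at Rgs5 read 12.30, 12.10 and 12.19 in Notch3-/- pools, against 12.52, 12.43 and 12.46 in Notch3+/+ pools. The limma unadjusted p of the 4 Rgs5 probe sets were 0.382, 0.012, 0.0706 and 0.0254, and their limma adjusted p 0.739, 0.302, 0.484 and 0.373. Changes this near the top of the scale can be compressed, which was not tested.

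Rgs18, known from platelets and their precursors, and Rgs19, the Gi-binding RZ member also called GAIP, had positive changes. Rgs19 read 6.94, 7.01 and 6.62 in Notch3-/- pools, against 6.55, 6.44 and 6.37 in Notch3+/+ pools, without overlap, a change of 0.40 (SE 0.12, limma adjusted p = 0.286). Its other probe set changed by 0.64 (limma adjusted p = 0.199) and passed only with array weights (limma adjusted p = 0.0198). The 2 probe sets of Rgs18 changed by 0.52 and 0.80, with overlapping pools and limma adjusted p of 0.344 and 0.372. Rgs1, Rgs2, Rgs13, Rgs18 and Rgs21 follow one another on chromosome 1 with no other coding gene between them, and changes there had both signs, -0.45 for Rgs1 and 0.52 for Rgs18. Rgs9 (-0.04) and Rgs14 (-0.08) had limma adjusted p of 0.791 or more, with 0.07 and -0.13 without Notch3-/- replicate 2, and Rgs6, Rgs8, Rgs13 and Rgs20 lay below the filter.

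Rgs7bp, which anchors the R7 group at the cell membrane, had the lowest adjusted p among the probe sets of RGS genes and of R7 partners. On 1436876_at it read 7.84, 7.85 and 7.81 in Notch3-/- pools, against 8.30, 8.44 and 8.54 in Notch3+/+ pools, with no overlap. The change was -0.59 (SE 0.09), or 1.51-fold lower in Notch3-/- arteries, with a limma adjusted p of 0.057. Its other probe sets changed by -0.40 and -0.72 (limma adjusted p = 0.372 and 0.243). The call depended on the setting: the adjusted p of 1436876_at was 0.0489 with the filter at the 60th percentile, 0.0476 with a trended robust variance, 0.0431 after a further quantile normalization and 0.00482 with array weights. Without Notch3-/- replicate 2 it was 0.145, and leaving out each array gave 0.0714 to 0.336. Gnb5, the obligate partner of the R7 group, changed by 0.09 (limma adjusted p = 0.673). Nerve and Schwann cell markers (5 tested) had 4 values below 0 with a median of -0.18 over the 5, and 3 were lower at an unadjusted p under 0.05, beside 4.81% of all tested genes. They summed to 505 to 553 in Notch3-/- pools and 529 to 546 in Notch3+/+ pools, and their part in the Rgs7bp values was not tested.

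**Figure D5:**
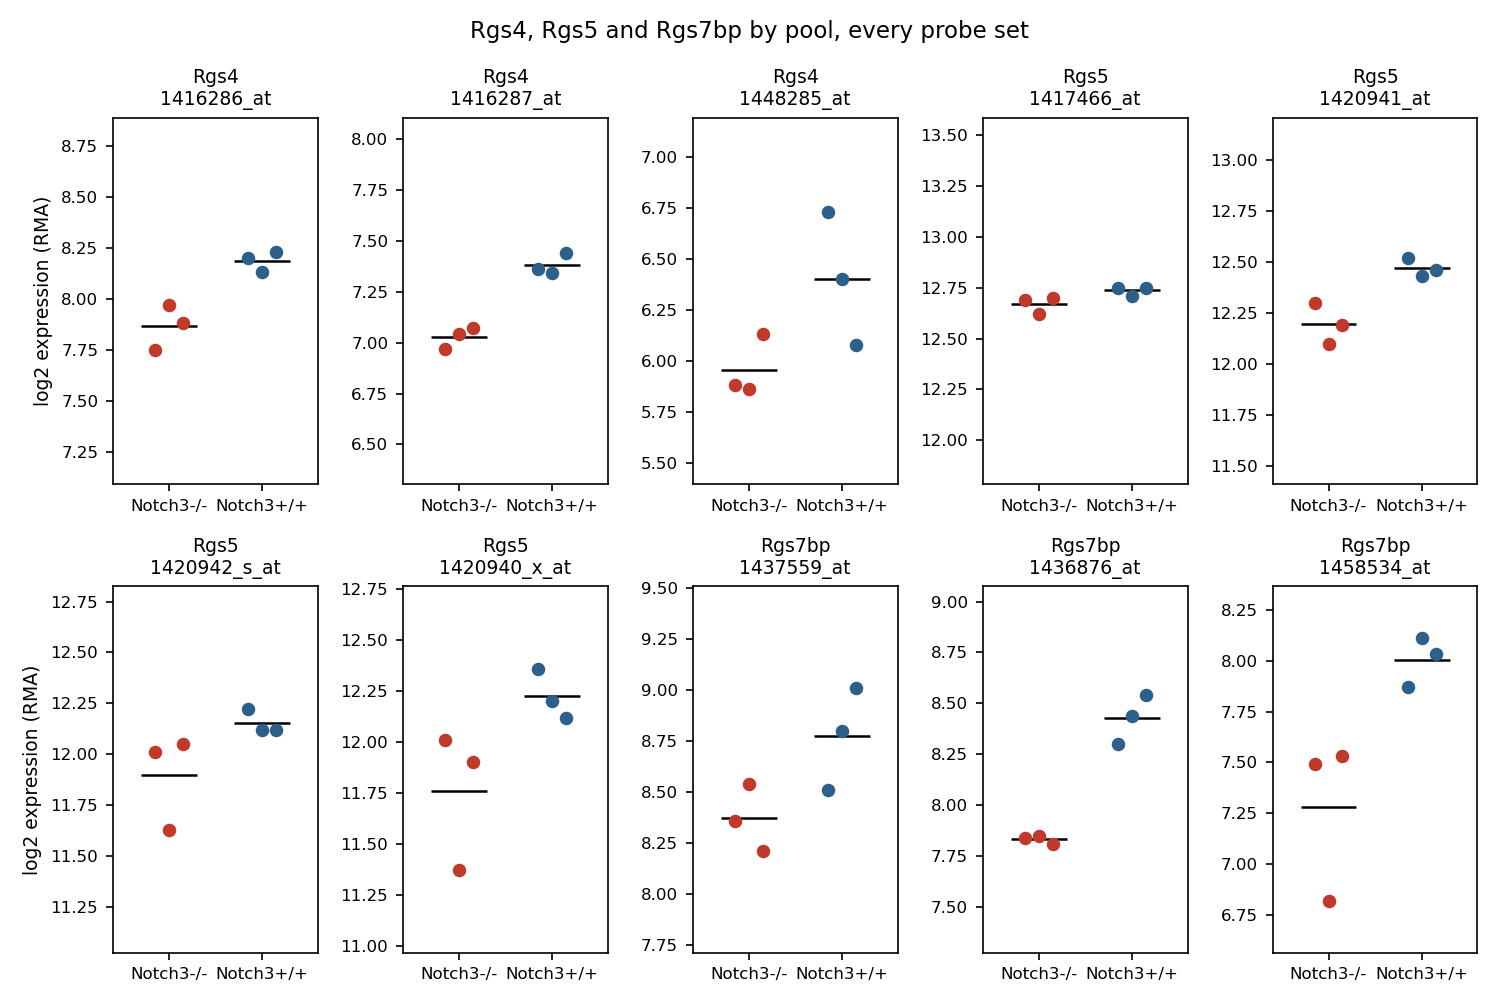
Log2 expression (vertical axis, RMA) on every probe set of Rgs4, Rgs5 and Rgs7bp in 3 Notch3-/- pools (red, left) and 3 Notch3+/+ pools (blue, right); points are pools and bars are means, and every panel spans the same number of log2 units. All 10 probe sets have the lower mean in Notch3-/- pools, and the pools overlap on 1448285_at of Rgs4 and 1437559_at of Rgs7bp.

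Upstream of RGS proteins, receptors and G-protein subunits were measured with the same test. An unadjusted p under 0.05 was found for 11.9% of all tested genes, 7.1% higher and 4.81% lower in Notch3-/- arteries. Of 12 receptors that couple to Gq, 0 passed in limma, with 3 higher and 2 lower at an unadjusted p under 0.05. Among the higher ones were the prostaglandin receptor gene Ptgfr (0.87, adjusted p = 0.127) and the nucleotide receptor gene P2ry6 (0.53, adjusted p = 0.193). To complete the count, the third higher one, Agtr1a (0.50), and the lower ones, Avpr1a (-0.37) and P2ry2 (-0.30), were named after their values were seen. Of the alpha subunits that RGS proteins act on, 5 for Gi and Go and 3 for Gq and G11 were tested. In limma 0 passed and 0 had an unadjusted p under 0.05, with changes from -0.15 to 0.15 and from -0.21 to 0.20. Without Notch3-/- replicate 2 the genes at these ends changed by -0.07 (Gnao1), 0.05 (Gnai3), 0.0017 (Gna11, which turned its sign) and 0.06 (Gnaq). Of the Gs and G12/13 subunits (4 tested), 0 passed and 0 had an unadjusted p under 0.05. Of 10 beta and gamma subunits 0 passed, and Gng11 (-0.40, limma adjusted p = 0.128) had an unadjusted p under 0.05.

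The enzymes downstream gave 0 calls as well. Of 6 phospholipase C beta and inositol trisphosphate receptor genes, Plcb4 (0.33) and Itpr3 (-0.23) had an unadjusted p under 0.05, with limma adjusted p of 0.275 and 0.433. Of 8 adenylyl cyclases, the targets of Gi and Gs, 3 were lower and 2 higher at an unadjusted p under 0.05, beside the shares of 4.81% and 7.1% of all tested genes. The higher ones were Adcy7 (0.33) and Adcy1 (0.35), with limma adjusted p of 0.269 and 0.296. The lower ones were Adcy9 (-0.36), Adcy3 (-0.41) and Adcy6 (-0.28), named after their values were seen to complete the count, and 6 of the 8 were below 0.

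Across the 6 pools, the levels most like that of Rgs2, whose probe set had the highest mean among those of the 10 genes, were those of Hdhd2, Col4a3 and Adsl (Pearson r = 0.994, 0.993 and 0.988 over 12731 tested genes). Those most like Rgs1 were Ppm1l, Nle1 and Gng11 (r = 0.987, 0.985 and 0.985). With 6 points high values are common: 92 genes exceeded r = 0.9 with Rgs2 and 173 with Rgs1, and the points share genotype and arrays.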

How the data were processed

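Total RNA of pooled caudal arteries was labelled with biotin and hybridised to Affymetrix MOE430 2.0 chips, per the labels' protocols and the series' design text. The deposited values are log2 expression per probe set made by the authors with RMA, per the submitters' processing notes. The RMA version is not given in the sources used here, nor is the chip definition. Differences of dim and very bright probe sets can be compressed in such values, which was not measured here. No scan day or batch is given.

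Of 45101 probe sets, 64 controls were left out. The platform annotation gave 34945 one symbol, 932 several and 9160 none, and symbols were updated through gene numbers (34741 matched) to RefSeq for GRCm38.p6. Probe sets with a mean under the 40th percentile were not tested, which left 27027 (12732 genes by the brightest probe set). Genotype was tested with limma 3.58.1 in R 4.3.3 (lmFit, eBayes), two-sided, with Benjamini-Hochberg adjustment over all tested probe sets and a threshold of 0.05. The fit was tested on simulated data. Nothing says whether pools shared litters, and 3 arrays per genotype limit the precision of every value.

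Named were all probe sets of the 10 genes, the other RGS genes and R7 partners, in each other pathway list the called genes and up to 2 of smallest p, and the 3 genes most correlated with 2 of the RGS genes. The genes and lists were chosen with earlier results of these data known. Listed genes with no probe set of their own name are not analysed here. Settings varied were the level filter, variance model, normalization, centring, array weights, replicate block, probe set of a gene and the omission of each array.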

Additional observations from a re-analysis of the deposited data

How the results depend on the processing

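No RGS probe set was called under 12 of the 13 refits, array weights being the exception. With array weights, 978 probe sets of the chip were called, 3 RGS probe sets (Rgs1 and 2 of Rgs4) and 9 pathway genes, and 7 RGS probe sets had an unadjusted p under 0.05. That fit gave Notch3-/- replicate 3 the weight 3.04 and Notch3+/+ replicate 2 the weight 2.94, and Notch3-/- replicate 2 the weight 0.29, so it rests largely on a pair of arrays. With no level filter, which adds 6 dim RGS probe sets, 5 had pools that did not overlap. The share of all probe sets without overlap was not counted for this or the other refits. Leaving out each array gave 13 to 62 called probe sets (against 68 with all arrays, 13 when Notch3+/+ replicate 2 was omitted, 23 for its replicate 3, 17 when Notch3-/- replicate 3 was omitted and 37 for its replicate 2), 0 called RGS probe sets, 3 to 5 RGS probe sets at an unadjusted p under 0.05, 3 to 7 without overlap and 0 to 1 called pathway genes. The replicate block gave 57 called probe sets and 0 RGS calls and changed no other RGS count. The labels do not say whether the numbers pair the samples. Deviations of same-numbered pools from their genotype means correlated at 0.24, 0.05 and -0.07, and so few pools cannot settle it. Of 225 refitted changes of the 17 RGS probe sets, 15 had the other sign, all on 5 probe sets of Rgs2, Rgs3, Rgs12 and Rgs17 whose change was at most 0.10 in size. No sign changed for Rgs1 or Rgs4.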

Other observations

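GoLoco proteins, which hold Gi alpha subunits in the form loaded with GDP, had 3 of 4 changes above 0. In Notch3-/- against Notch3+/+ arteries, 0 of 4 passed in limma and 2 were higher at an unadjusted p under 0.05, as were 7.1% of all tested genes. Gpsm2 averaged 7.21 ± 0.29 in Notch3-/- pools and 6.53 ± 0.08 in Notch3+/+ pools (SD, n = 3 each), a change of 0.68 with a limma adjusted p of 0.173, and it passed without Notch3-/- replicate 1 (limma adjusted p = 0.0423) and with array weights (limma adjusted p = 0.0173). Gpsm1 averaged 6.78 ± 0.19 in Notch3-/- pools and 6.33 ± 0.10 in Notch3+/+ pools (SD, n = 3 each), a change of 0.45 with a limma adjusted p of 0.24. On both, every Notch3-/- pool lay above every Notch3+/+ pool, as for 9.46% of all tested genes. Of 6 receptor kinases and arrestins, which end receptor signals by another route, 0 passed and 0 had an unadjusted p under 0.05, with changes from -0.17 for Grk3 to 0.18 for Arrb2. Of 5 cyclic GMP pathway genes, 0 passed and 0 had an unadjusted p under 0.05, with -0.18 for Prkg1, the kinase that phosphorylates Rgs2, and 0.11 for Gucy1b1.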
